A study of Rattus norvegicus with 6 samples.

Results

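Glycolysis was examined in BRIN-BD11 cells through 8 genes that encode enzymes of the pathway, taken in order as Hk2, Pfkl, Tpi1, Gapdh, Pgk1, Eno1, Pkm and Ldha. The 8 genes were chosen by Ensembl identifier for their place in the pathway, not for their values, out of 22250 genes counted in each library. Earlier results of these data were known when the choice was made. BRIN-BD11 cells secrete insulin and come from a fusion between rat islet cells (strain NEDH) and RINm5F tumour cells. The data therefore describe 1 hybrid line and not islet tissue. At passage 25, 6 libraries were compared, 3 of control cells, labelled WT and given no histone deacetylase inhibitor, and 3 of cells cultured for 16 h with 5 µM MS-275, which was added 24 h after seeding. MS-275 (entinostat) inhibits class I histone deacetylases, and the vehicle of the controls was DMSO according to the study. The sample information gives the 16 h and the 24 h for the treated libraries only. Counts on genes, the depth of a library, came to 7700713, 7982477 and 5692971 for control replicates 1 to 3. For MS-275 replicates 1 to 3 they came to 5536188, 5230555 and 9172422. The labels do not say whether replicates came from separate cultures, so the p-values measure the spread between these libraries, which may be technical.

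The count tables pair no identifier with a gene name, and 0 of the 22250 identifiers were found in the RefSeq gene table used here. The 8 names are those given with the selection and were not checked against the files. The other isoenzymes of the pathway and the marker genes of beta cells, which would have tested the labelled cell type, were not analysed here.

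In glycolysis, hexokinase traps glucose as glucose 6-phosphate and phosphofructokinase makes the committed step. Triosephosphate isomerase interconverts the triose phosphates, glyceraldehyde-3-phosphate dehydrogenase and phosphoglycerate kinase yield NADH and ATP, and enolase and pyruvate kinase lead to pyruvate, which lactate dehydrogenase can reduce to lactate. In beta cells, the metabolism of glucose drives insulin secretion. Mature beta cells phosphorylate glucose mainly with glucokinase and are known for low levels of the high-affinity hexokinases and of lactate dehydrogenase A, whereas proliferating cells and cell lines often express both.

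Upon MS-275 treatment, Hk2 and Pkm rose most, 1.95-fold and 1.71-fold, and Eno1 and Ldha rose 1.20-fold and 1.21-fold. Pfkl fell by 32.3% and Gapdh fell by 24.7%. Of the 8 enzymes, 7 had enough counts to be tested. With an adjusted p-value under 0.05 (edgeR's quasi-likelihood test over all genes, Benjamini-Hochberg adjustment), 4 were higher, 2 were lower and 1, Pgk1, did not pass. Over all 12596 genes tested, 63.6% passed this threshold, 32.1% as higher and 31.5% as lower. The count of 6 in 7 is thus to be read against a transcriptome in which most genes passed. Without control replicate 2 the number of higher enzymes was 2, as Eno1 and Ldha did not pass. No enzyme passed an added threshold of 1 on the absolute log2 fold change, which 19.1% of all genes passed, 13.9% as higher and 5.16% as lower. Hk2 lay close to this threshold and went past it with upper-quartile scaling (1.04) and in some fits that left out libraries. The median log2 fold change of the 7 enzymes was 0.26, against -0.01 over all genes tested, and the median of their absolute log2 fold changes was 0.41, against 0.46 over all genes. In these bulk libraries, fewer cells that express a gene and less RNA per cell cannot be told apart.

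**Figure D1:**
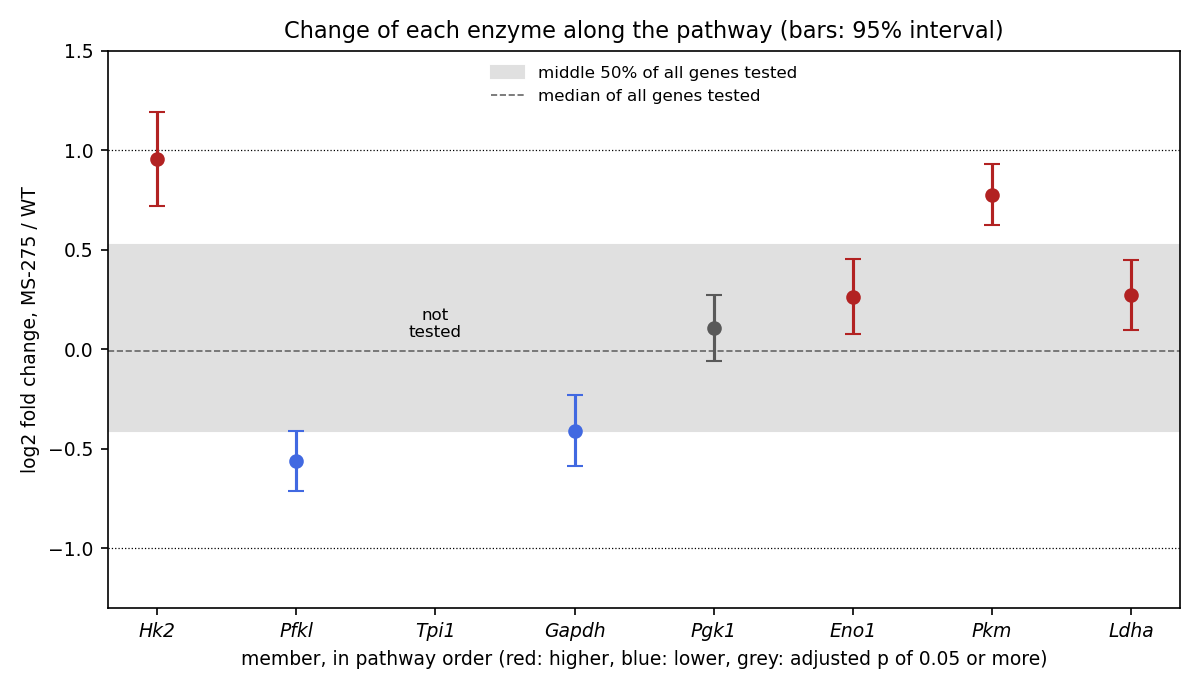
Log2 fold change (MS-275 over control, y axis) of each enzyme in pathway order, with 95% intervals as bars and the middle 50% of all tested genes shaded. Hk2 (0.95) and Pkm (0.78) lie above the shaded range and Pfkl (-0.56) below it, while Gapdh (-0.41) lies at its lower edge and Pgk1, Eno1 and Ldha lie inside it.

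Before the enzymes are taken in turn, 2 libraries need mention. Along the axis that joins the mean profiles of the groups over all tested genes, drawn from the other libraries, control replicate 1 lay 14.8% of the way toward the MS-275-treated libraries and MS-275 replicate 3 lay 13.1% of the way toward the controls. The other 4 libraries lay between -5.62% and -0.473%. Among the 7 tested enzymes, control replicate 1 was displaced toward the treated level in 5 and MS-275 replicate 3 toward the control level in 3. The share of all genes displaced in this way was not counted. Without these 2 libraries the same 4 enzymes were higher and the same 2 lower. The log2 fold changes were then 1.16 for Hk2, 0.38 for Eno1, 0.81 for Pkm, 0.27 for Ldha, -0.53 for Pfkl and -0.34 for Gapdh. The 2 libraries were picked from these data for lying toward the other group. Leaving them out therefore tends to widen the distance between the groups by construction, and is no independent check of these values.

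Hk2 (ENSRNOG00000006116) encodes hexokinase 2, a high-affinity hexokinase that binds the outer mitochondrial membrane. Its level in CPM (counts per 1000000 counts on tested genes, with library sizes scaled by edgeR's TMM method) was 78.3, 65.1 and 59.4 for control replicates 1 to 3. For MS-275 replicates 1 to 3, the order kept below, it was 148, 128 and 119 CPM. Every treated library lay above every control. The mean went from 67.6 ± 9.69 CPM (SD, n = 3) to 132 ± 15.1 CPM (SD, n = 3), 1.95-fold higher. The log2 fold change of 0.95 (standard error 0.11, 95% interval 0.72 to 1.19, edgeR, adjusted p = 2.73e-06) was higher than that of 85.3% of the tested genes. Control replicate 1 was the highest control and MS-275 replicate 3 the lowest treated library, and without both the log2 fold change was 1.16. It also went past 1 without control replicate 1 (1.08) and without MS-275 replicate 3 (1.03). The spread of Hk2 between replicates, 14.3% of the mean in the controls, was the widest of the 7 enzymes.

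Pfkl (ENSRNOG00000001214) encodes the liver-type subunit of phosphofructokinase, the enzyme that ATP and citrate inhibit and fructose 2,6-bisphosphate activates. It gave 392.4, 385.4 and 405.4 CPM in the controls and 275.1, 265.4 and 260.3 CPM in the treated libraries. The groups were well apart, with a coefficient of variation of 2.58% in the controls and 2.81% with MS-275. The mean fell by 32.3%, from 394 ± 10.2 to 267 ± 7.50 CPM (SD, n = 3 each). Its log2 fold change was -0.56 (standard error 0.07, 95% interval -0.72 to -0.41, edgeR, adjusted p = 5.71e-06). The RNAs of Hk2 and Pfkl thus changed in opposite directions, while other isoenzymes of these steps were not analysed here.

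Tpi1 (ENSRNOG00000015290) encodes triosephosphate isomerase, which catalyses a near-equilibrium reaction. The row listed for it held counts of 10, 14 and 6 in the controls and 12, 6 and 11 in the treated libraries, and it did not pass the filter on low counts. The groups overlapped. Mean levels were 1.34 ± 0.348 CPM for controls and 1.54 ± 0.586 CPM for treated libraries (SD, n = 3 each). The summed counts were 30 in the controls (exact Poisson 95% interval 20.2 to 42.8, counting error only) and 29 with MS-275 (19.4 to 41.6). Tested without the filter, its log2 fold change was 0.12 with a standard error of 0.47 (edgeR, adjusted p = 0.853), so a difference was not detectable at this depth. In fits that left out 1 library and in which the row passed the filter, its sign was not stable. The log2 fold change was -0.17 without MS-275 replicate 1, 0.01 without control replicate 3 and 0.27 without MS-275 replicate 2.

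Gapdh (ENSRNOG00000018630) encodes glyceraldehyde-3-phosphate dehydrogenase and is widely used as a reference transcript. The row listed for it held between 860 and 1920 counts in a library, and neither its name nor whether these counts miss reads that also align to copies of the gene was tested. It gave 242, 220 and 229 CPM in the controls and 159, 191 and 169 CPM in the treated libraries. All 3 treated libraries were below all 3 controls. The mean fell by 24.7%, from 230 ± 10.9 to 173 ± 16.5 CPM (SD, n = 3). The log2 fold change was -0.41 (standard error 0.08, 95% interval -0.59 to -0.23, edgeR, adjusted p = 0.000498), and over the 15 alternative settings it stayed between -0.48 and -0.32.

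Pgk1 (ENSRNOG00000058249), the gene of phosphoglycerate kinase 1, which makes the first ATP of the pathway, did not pass the threshold. It gave 742, 653 and 719 CPM in the controls and 752, 717 and 804 CPM in the treated libraries, so that MS-275 replicate 2 lay within the range of the controls. The log2 fold change was 0.11, with a 95% interval from -0.06 to 0.27 (edgeR, adjusted p = 0.251), which spans no change as well as a rise similar to that of Eno1 or Ldha. With upper-quartile scaling, which raised the median log2 fold change of all genes to 0.08, Pgk1 passed with a log2 fold change of 0.20 (edgeR, adjusted p = 0.0410). The value was lower without control replicate 2 (0.05), without MS-275 replicate 3 (0.06) and with library sizes alone (0.04, edgeR, adjusted p = 0.677).

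Eno1 (ENSRNOG00000017895) encodes alpha-enolase, which forms phosphoenolpyruvate. Its values were 290, 267 and 237 CPM in the controls and 349, 301 and 306 CPM with MS-275. The highest control and the lowest treated library were close, but the groups did not overlap. The log2 fold change was 0.26 (standard error 0.09, 95% interval 0.08 to 0.45, edgeR, adjusted p = 0.0167). Without both displaced libraries it was 0.38. The edgeR call was lost without control replicate 2 (0.27, adjusted p = 0.0545), without control replicate 3 (0.19, adjusted p = 0.111) and with library sizes alone (0.20, adjusted p = 0.0688).

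Pkm (ENSRNOG00000011329), whose alternatively spliced transcripts encode the M1 and M2 forms of pyruvate kinase, had the smallest adjusted p-value of the 7. It gave 323, 334 and 336 CPM in the controls and 591, 567 and 542 CPM in the treated libraries. The control libraries were almost level, with a coefficient of variation of 2.05%, and every treated library was far above them. The mean went from 331 ± 6.78 CPM to 567 ± 24.9 CPM (SD, n = 3 each), 1.71-fold higher. The log2 fold change was 0.78 (standard error 0.07, 95% interval 0.62 to 0.93, edgeR, adjusted p = 2.44e-07). Counts per gene do not separate the M1 and M2 transcripts.

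Ldha (ENSRNOG00000013009) encodes the A subunit of lactate dehydrogenase, which regenerates NAD+ at the end of anaerobic glycolysis. It gave 792, 708 and 717 CPM in the controls and 823, 872 and 980 CPM with MS-275. The lowest treated library was just above the highest control. The log2 fold change was 0.27 (standard error 0.08, 95% interval 0.10 to 0.45, edgeR, adjusted p = 0.00954), and without control replicate 2 it was 0.24 and did not pass (adjusted p = 0.0659).

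**Figure D2:**
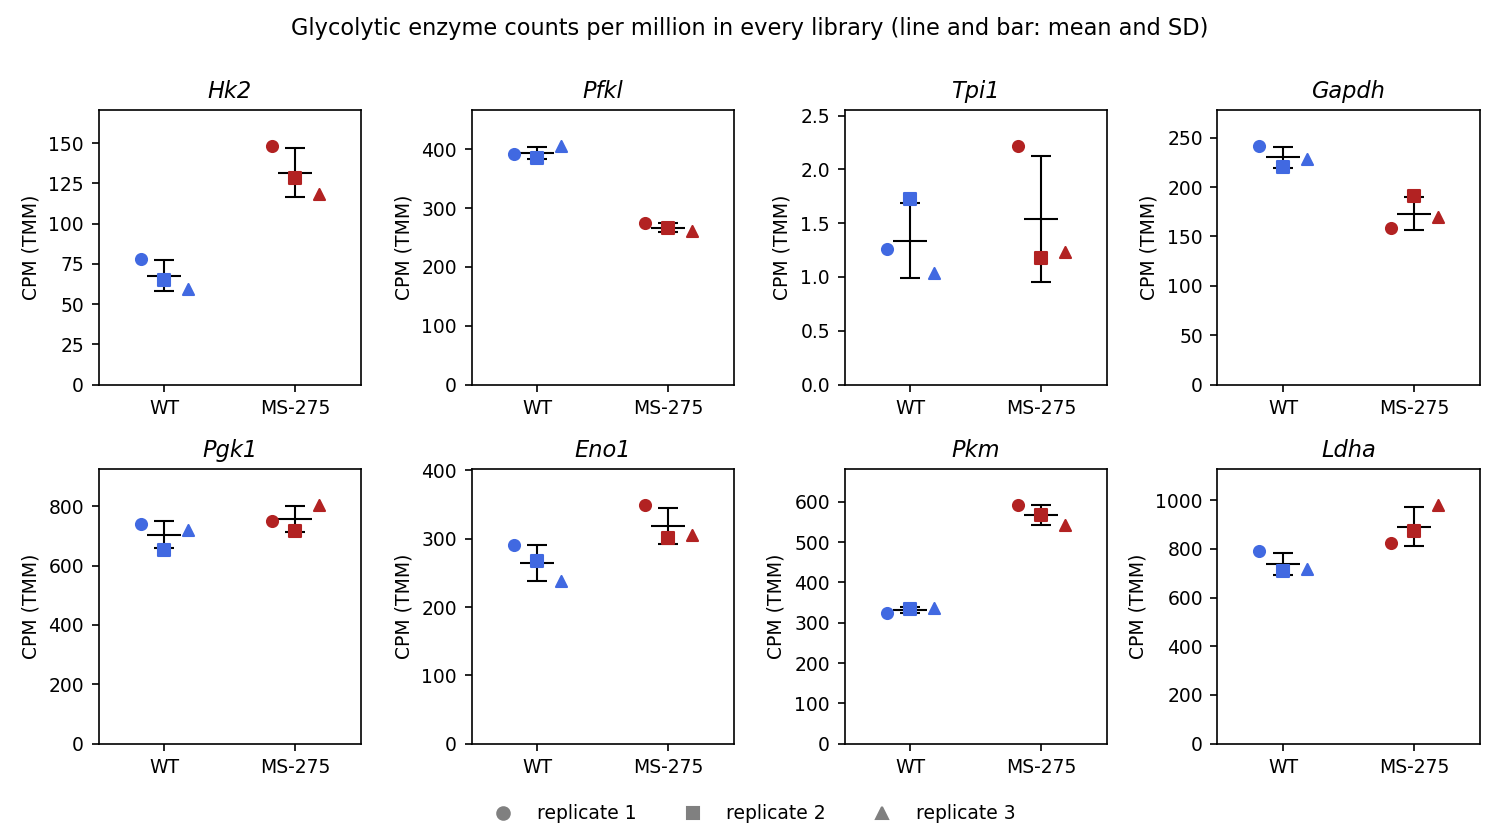
CPM (TMM-scaled, y axis from 0, a separate scale for each gene) of the 8 enzymes in the 3 control (blue, WT) and 3 MS-275-treated (red) libraries, with marker shape giving the replicate number and lines giving mean and SD. The groups are apart for Hk2, Pfkl, Gapdh, Eno1, Pkm and Ldha and overlap for Tpi1 and Pgk1.

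In 6 of the 7 tested enzymes the 3 values of one group all lay above those of the other, as they did for 68.1% of all tested genes. Exact permutation tests gave p = 0.1 for each of these 6 (two-sided), the smallest value that 3 libraries against 3 allow. Together the 8 genes held 0.279% ± 0.0140 of a control library's counts on genes and 0.303% ± 0.00679 of a treated library's (SD, n = 3 each). Their summed level was 2860, 2634 and 2704 CPM in the controls and 3100, 3044 and 3181 CPM in the treated libraries. The sum was thus higher in each treated library, although 2 of its members fell. The largest rises in mean CPM were those of Pkm (331 to 567) and Ldha (739 to 892), so the sum mostly reflects these genes. By library sizes alone, control replicate 1 (2952 CPM) and MS-275 replicate 2 (2966 CPM) were nearly level. With library sizes alone the gap was smaller, with means of 2794 ± 140 CPM and 3033 ± 67.9 CPM, against 2733 ± 116 CPM and 3108 ± 69.0 CPM with TMM (SD, n = 3 each).

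**Figure D3:**
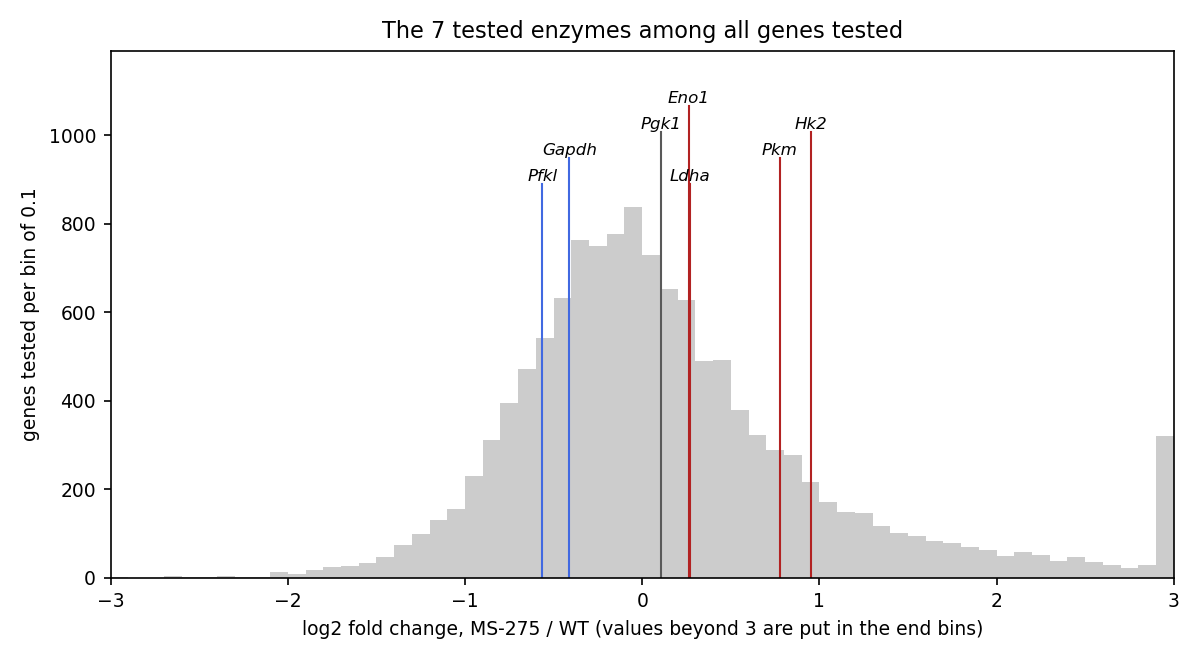
Number of tested genes (y axis) per bin of log2 fold change (x axis, MS-275 over control), with a vertical line for each of the 7 tested enzymes, blue for lower, red for higher and grey for Pgk1, which did not pass (values beyond 3 are put in the end bins). Pfkl and Gapdh lie to the left of the peak, and Pkm and Hk2 lie on the right slope, below a log2 fold change of 1.

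To ask whether neighbouring steps changed by different amounts, the difference in log2 CPM between each enzyme and the one before it was taken within each library, which does not depend on scaling. Between the control and treated groups, the difference Pfkl minus Hk2 fell by 1.53 on the log2 scale (standard error 0.15), the widest shift of the 7 neighbouring pairs. The difference Pgk1 minus Gapdh was 0.52 higher (standard error 0.11) and Pkm minus Eno1 0.51 higher (standard error 0.11) with MS-275. The difference Ldha minus Pkm fell by 0.51 (standard error 0.13). In these 4 pairs the groups did not overlap (exact permutation test, two-sided p = 0.1, adjusted over the 7 pairs 0.175). A comparison of 3 libraries against 3 cannot give a smaller unadjusted p. For single genes, the groups did not overlap in 68.1% of those tested, and the share over other gene pairs was not computed. Pkm minus Eno1 and Ldha minus Pkm both contain the rise of Pkm, and Pgk1 minus Gapdh contains the fall of Gapdh. The pairs are thus not independent of each other or of the single-gene changes. For Eno1 minus Pgk1 the groups overlapped, with a shift of 0.16 (standard error 0.13). The 2 pairs that contain Tpi1 also overlapped, with shifts of 0.73 (standard error 0.36) and -0.58 (standard error 0.43). Each shift kept its sign with every library left out in turn, but the 3 shifts of overlapping pairs were moved strongly by single libraries. Without MS-275 replicate 1, Tpi1 minus Pfkl was 0.46, Gapdh minus Tpi1 was -0.23 and Eno1 minus Pgk1 was 0.09. Without control replicate 3, Eno1 minus Pgk1 was 0.07.

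Gapdh was the reference transcript for some genes in the study's quantitative PCR of beta cells, while 18S rRNA served for others. The primers are shown because their product is the denominator of the former assays.
Gapdh forward primer: agttcaacggcacagtcaag
Gapdh reverse primer: tactcagcaccagcatcacc
In the sequencing libraries, dividing by Gapdh of the same library in place of TMM scaling multiplies every other fold by the same factor, 1.33, which follows from the fall of Gapdh alone and is no result about the other enzymes. The values show the size of this shift, and they rest on the row listed for Gapdh, whose name was not checked. The fold of Hk2, a ratio of geometric means, went from 1.95 to 2.60, that of Pkm from 1.71 to 2.28, and that of Ldha from 1.21 to 1.60. That of Pgk1 went from 1.08 to 1.43, with groups that no longer overlapped. The fold of Pfkl went from 0.677 to 0.901, with groups that overlapped, and the log2 difference was -0.15 with a standard error of 0.10. This comparison was added after the fall of Gapdh was seen.

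**Figure D4:**
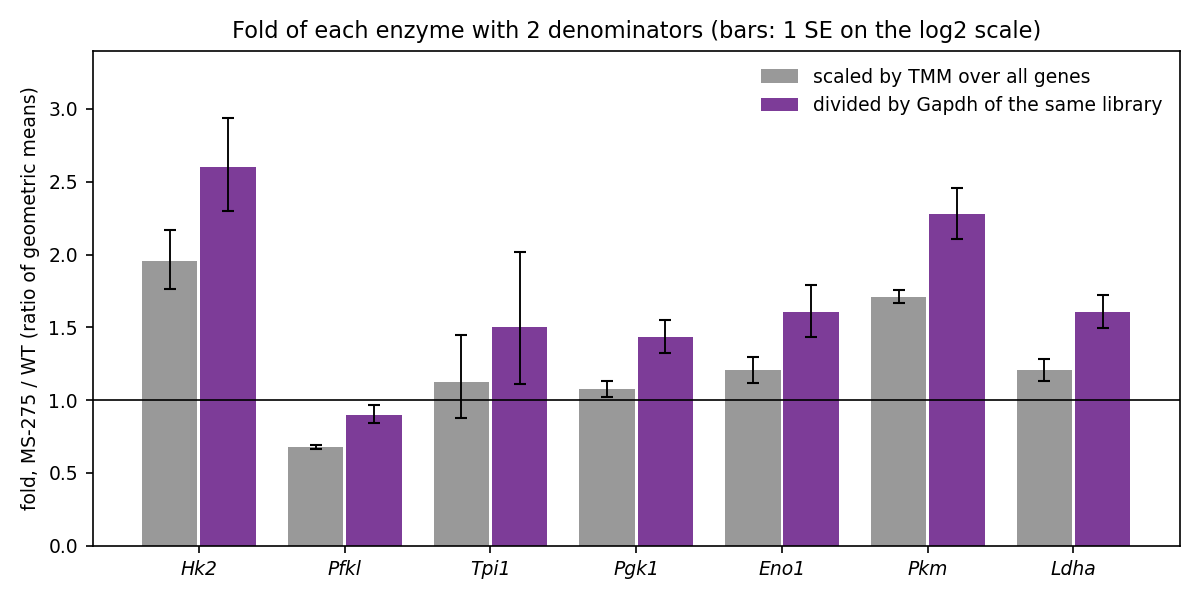
Fold (MS-275 over control, ratio of geometric means, y axis from 0) of 7 enzymes with TMM scaling (grey) and divided by Gapdh of the same library (purple), with bars of 1 standard error on the log2 scale (n = 3 per group). By construction each purple bar is 1.33 times its grey neighbour, and Pfkl lies below 1 with both denominators.

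Several of these genes have copies elsewhere in the rat genome, to which short reads can also align. The RefSeq gene table of the assembly GRCr8, which is not the build that was counted, lists 81 entries named as pseudogenes of Gapdh, 31 of Eno1, 30 of Ldha, 19 of Pkm, 8 of Pgk1 and 3 of Tpi1, and 0 of Hk2 and Pfkl. Alignments to more than 1 place were set aside in the count tables and made up between 7.95% and 8.19% of the alignments in the controls and between 8.70% and 9.19% in the treated libraries. The values of the genes with copies are therefore uncertain as levels. Whether set-aside reads had a part in the change of Gapdh, Eno1, Ldha, Pkm or Pgk1, or in the low counts listed for Tpi1, was not tested. For Hk2 and Pfkl, which have no entry named as a pseudogene, the part of set-aside reads was not tested either.

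The promoters of the 2 enzymes with the largest rises and the 2 that fell are shown to set the start sites of genes that moved in opposite directions side by side. Each runs from 250 bases before to 50 after the start site in RefSeq's GRCr8 and is written on the strand of the gene, at chr4:116841226-116841525 (minus strand) for Hk2, chr8:68953385-68953684 (plus) for Pkm, chr20:10663715-10664014 (plus) for Pfkl and chr4:159652418-159652717 (minus) for Gapdh. Capitals mark every match, on either strand, to GGGCGG (a GC box), CCAAT (which the factor NF-Y binds) and TATAAA (which the TATA-binding protein binds). They also mark ACGTG, 1 form of the core of hypoxia response elements, and CACGTG, an E-box that contains ACGTG. Other forms of the hypoxia core were not searched.
Hk2: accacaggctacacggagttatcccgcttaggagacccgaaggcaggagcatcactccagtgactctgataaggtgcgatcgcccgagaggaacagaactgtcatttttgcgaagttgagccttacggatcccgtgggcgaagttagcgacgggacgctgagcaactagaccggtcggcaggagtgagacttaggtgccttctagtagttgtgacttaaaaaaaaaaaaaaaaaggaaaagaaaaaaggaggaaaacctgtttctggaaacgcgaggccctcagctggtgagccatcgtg
Pkm: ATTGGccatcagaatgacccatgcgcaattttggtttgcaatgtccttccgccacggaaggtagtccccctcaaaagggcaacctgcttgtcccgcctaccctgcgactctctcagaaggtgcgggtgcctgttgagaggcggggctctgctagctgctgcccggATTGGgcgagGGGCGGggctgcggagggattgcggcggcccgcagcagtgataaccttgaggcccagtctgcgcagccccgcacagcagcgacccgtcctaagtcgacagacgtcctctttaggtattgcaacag
Pfkl: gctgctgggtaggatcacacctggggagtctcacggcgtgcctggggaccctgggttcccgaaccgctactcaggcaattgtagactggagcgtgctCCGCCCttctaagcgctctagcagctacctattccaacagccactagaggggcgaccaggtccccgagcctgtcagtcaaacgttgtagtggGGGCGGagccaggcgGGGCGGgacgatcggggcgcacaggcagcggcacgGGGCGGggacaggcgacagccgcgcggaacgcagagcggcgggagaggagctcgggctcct
Gapdh: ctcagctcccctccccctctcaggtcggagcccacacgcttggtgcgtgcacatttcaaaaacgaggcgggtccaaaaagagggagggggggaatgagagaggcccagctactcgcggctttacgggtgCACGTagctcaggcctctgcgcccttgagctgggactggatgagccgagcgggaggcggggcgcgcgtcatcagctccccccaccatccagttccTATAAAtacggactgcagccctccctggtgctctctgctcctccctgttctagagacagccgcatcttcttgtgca
Of the 8 enzymes, 7 had at least 1 promoter entry, and Pgk1 had none. The Pfkl window held 4 matches to GGGCGG and the Pkm window 1, against a share of 33.1% of all 33469 RefSeq promoter windows with at least 1. The Pkm window also held 2 matches to CCAAT, which occurs in 37.5% of the windows. Gapdh had a TATAAA 26 bases before the start (14.2% of windows) and 1 ACGTG (19.3% of windows). In the Hk2 window none of these motifs was found. Outside the sequences shown, Ldha held 3 matches to ACGTG, with 2 of them, on opposite strands, inside a single CACGTG (6.42% of windows). Of the 7 enzymes with an entry, 5 held GGGCGG, 3 ACGTG, 2 CCAAT, 1 TATAAA and 1 CACGTG. These counts are per gene, with any window of Eno1 counted, whereas the shares are per window. The GC content of the enzymes' windows ran from 51% (Hk2) to 68.3% (an Eno1 window), against a median of 51.7% over all windows. The shares were not matched for it. A match is a description of the letters in the window and not a bound site.

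Among the other genes tested, the pattern nearest to that of Hk2 was that of ENSRNOG00000008377, followed by ENSRNOG00000059401. Likeness was the Euclidean distance between log2 CPM values centred on the control mean over the 6 libraries, 0.0847 for the first and 0.0959 for the second. Their log2 fold changes were 0.95 and 0.94, which lie near that of Hk2 by the way they were picked and are no separate result. The second gene had low levels, with means of 5.50 CPM in the controls and 10.8 CPM with MS-275.

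**Figure D5:**
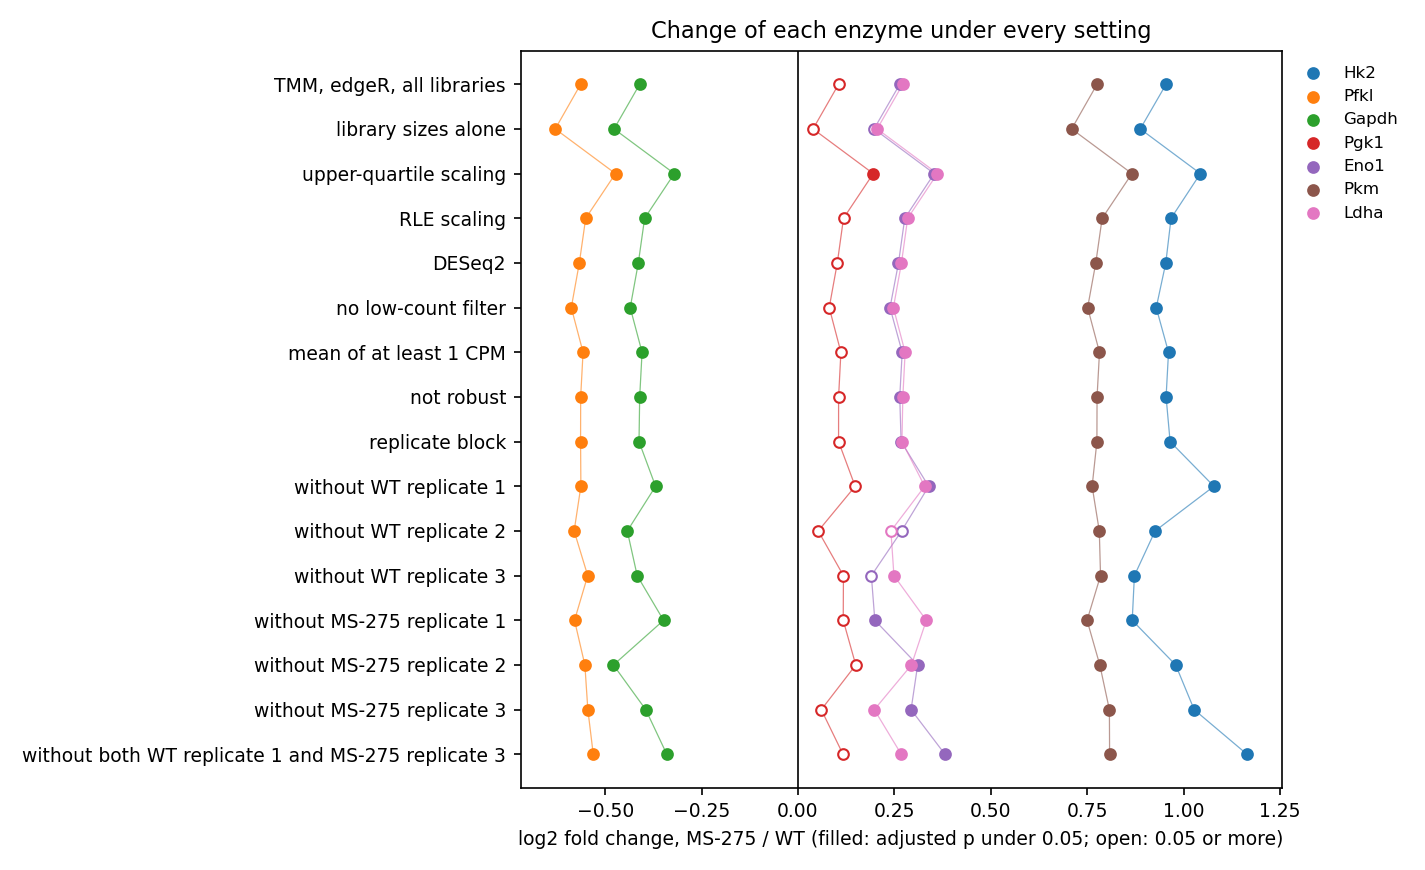
Log2 fold change (x axis) of the 7 tested enzymes under each setting (y axis), with filled circles for an adjusted p-value under 0.05 and open circles for 0.05 or more. Hk2, Pkm, Pfkl and Gapdh are filled in every row, while Eno1 is open in 3 rows, Ldha in 1 and Pgk1 in all but 1, that of upper-quartile scaling.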

How the data were processed

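Per the methods and labels, the authors filtered contaminating reads (bowtie2), aligned to Rnor_6.0 (STAR) and deposited 1 table of raw counts per Ensembl gene and library, without normalization. Trimmomatic is named in the submitters' processing notes. featureCounts is the counter named, but each table closes with 5 summary lines in the style of htseq-count. Those lines took no part in any test, and genes held between 29.2% and 31.4% of the alignments. Strandedness and the annotation release are not given in the sources used here. The deposited table of the authors' own comparison (group means, fold changes and p-values) was not used.

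With edgeR 4.0.16 (R 4.3.3), filterByExpr kept 12596 of 22250 genes, which held 99.9% of the counts. After TMM scaling (factors 0.976 to 1.03), groups were compared with the robust quasi-likelihood F test, no block, and Benjamini-Hochberg adjustment over these genes. Standard errors are log2 fold changes over the square root of F. Intervals of log2 fold changes include the spread between libraries. The Poisson intervals of Tpi1 cover counting error only, and reads without molecular identifiers are not independent molecules. Replicate libraries differed by more than sampling noise (chi-square per degree of freedom 1.76 to 10.5). The fits were tested on simulated data.

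All 8 members are named, with the 2 genes nearest in pattern to the member that changed most. Members and lists were chosen with earlier results of these data known. Alternatives were library sizes alone, upper-quartile and RLE scaling, DESeq2 1.42.0, other low-count filters, non-robust dispersions, a replicate block, leaving out libraries, and a threshold of 2 on the log2 fold change. Division by Gapdh was added after the values were seen. Lists fixed by symbol (other glycolytic genes, transporters and regulators, and markers of islet, acinar, duct and fibroblast cells) were not run, since no table used here pairs the identifiers with symbols.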

Additional observations from a re-analysis of the deposited data

How the results depend on the processing

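Hk2, Pkm, Pfkl and Gapdh kept their direction and an adjusted p-value under 0.05 (edgeR or DESeq2) under the 15 alternative settings, with log2 fold changes of 0.87 to 1.16 for Hk2, 0.71 to 0.87 for Pkm, -0.63 to -0.47 for Pfkl and -0.48 to -0.32 for Gapdh. None of the 7 tested enzymes changed its direction. Scaling by library sizes alone shifted the median log2 fold change of all genes to -0.08, and Eno1 did not pass (0.20, edgeR adjusted p = 0.0688). Upper-quartile scaling shifted that median to 0.08, and Pgk1 passed (0.20, edgeR adjusted p = 0.0410), as did 1 enzyme, Hk2, at an absolute log2 fold change of 1. Leaving out libraries, 1 at a time or both displaced ones together, gave between 2 and 4 higher enzymes, 2 lower ones, and between 0 and 1 (Hk2) past the fold threshold. The lowest of these counts, 2, came without control replicate 2, where Eno1 and Ldha did not pass. Over these fits Eno1 ranged from 0.19 to 0.38, Ldha from 0.20 to 0.33 and Pgk1 from 0.05 to 0.15. The cause of the lost calls beyond the smaller number of libraries was not tested. Under a log2 threshold of 2, which is stricter by construction, 681 of all genes were higher and 34 lower, with 0 of the 7 tested enzymes among them. The summed level of the 8 genes was 2733 CPM in the controls and 3108 CPM with MS-275 under TMM, and 2794 and 3033 CPM by library sizes alone, a gap over 1.5 times smaller. Same-numbered libraries of the 2 groups deviated from their group means with correlations of 0.16, -0.02 and 0.12, so the numbers were not taken as pairs. A replicate block left 4 enzymes higher and 2 lower (0.96 for Hk2, 0.77 for Pkm), with 4142 of all genes higher and 4113 lower, and changed no enzyme's call. Tpi1 had 14 counts or fewer in a library, too few for a precise fold change, and the cause of these low counts was not tested.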
